A study of Mus musculus with 21 samples.

Results

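The macrophages of obese fat that carry CD11c were compared with the macrophages of lean fat. CD11c is an integrin chain encoded by Itgax, and the cells were sorted as positive for both MHC class II and CD11c from mice on a high fat diet. Their 3 libraries were set against the mean of 2 lean populations on a normal diet, MHCII-low macrophages (3 libraries) and macrophages positive for MHC class II but not CD11c (3 libraries). These 9 of the 21 libraries of the series were grouped by their labels, and the comparison was chosen with earlier results of these data known. All mice were male C57BL/6, the diets lasted 16 weeks in both arms, and no transgene or other genetic change is given in the labels. Adipose tissue was digested with collagenase, and its cells were separated on a flow cytometer before RNA was extracted and amplified. The fat depot, the markers that defined a macrophage in the sort and the number of mice behind each library are not given in the sources used here. The p-values therefore measure the spread between these samples, which may be technical.

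Diet and population differ together in this comparison, because no lean CD11c-positive group was compared here. The total difference is therefore also given as a sum of 2 parts on the log2 scale. The diet part is the mean of obese MHCII-low and obese CD11c-negative macrophages (3 libraries each) minus the mean of the 2 lean groups. The population part is the CD11c-positive group minus the mean of the other obese groups. Both parts use the same obese libraries, so their values stand side by side and were not correlated. In bulk RNA, fewer cells of a type and less RNA per cell cannot be told apart.

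Adipose tissue macrophages clear dying adipocytes, take up the lipid that these release and store or burn it. In lean fat many are long-lived cells with scavenger and lectin receptors such as Lyve1, Cd163 and Timd4. In obese fat, cells that express Itgax gather around dead adipocytes, and macrophages that express Trem2, Cd9, Lpl and Gpnmb, known as lipid-associated macrophages, degrade lipid in their lysosomes.

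The comparison asks how far the CD11c-positive cells stand from lean tissue macrophages, and in which genes. Of 22935 genes tested, 13600 (59.3%) passed an adjusted p of 0.05, with 6400 (27.9%) higher and 7200 (31.4%) lower in CD11c-positive cells. Among the 9028 genes with a mean of at least 10 CPM (counts scaled to library size, with TMM factors) in the higher of the compared sides, 6758 (74.9%) passed, and the split turned to 4471 higher (49.5%) and 2287 lower (25.3%). Among those genes 295 rose and 331 fell by more than 2 on the log2 scale. The median log2 difference was -0.18 over all tested genes and 0.29 over the genes of at least 10 CPM. Most genes thus differ, and the counts in each gene list below are to be read against these shares and medians.

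The distance between 2 libraries was taken as the root mean square difference of their log2 CPM over all tested genes. CD11c-positive libraries lay 1.27 to 1.45 from lean MHCII-low libraries (median 1.43 of 9 pairs) and 1.17 to 1.39 from lean CD11c-negative ones (median 1.23). Lean libraries of the different populations lay 0.65 to 0.80 apart. This overlapped the span of lean replicates, 0.57 to 0.74 for MHCII-low and 0.64 to 0.70 for CD11c-negative cells. The CD11c-positive replicates lay 0.47 to 0.55 apart. The distances of CD11c-positive libraries to the other obese groups were shorter than those to lean ones, 0.59 to 0.79 to obese CD11c-negative and 0.70 to 0.98 to obese MHCII-low libraries. The obese groups that have a lean counterpart stood 0.84 to 1.15 (MHCII-low) and 0.92 to 1.15 (CD11c-negative) from it. Across populations, obese MHCII-low libraries stood 0.80 to 1.11 from lean CD11c-negative ones, and obese CD11c-negative libraries 1.07 to 1.25 (median 1.22) from lean MHCII-low ones. The last span overlaps that of CD11c-positive to lean CD11c-negative pairs, and it stays below that of CD11c-positive to lean MHCII-low pairs. Over genes of at least 10 CPM the overlap was gone. There obese CD11c-negative to lean MHCII-low pairs lay at 0.79 to 0.92, and CD11c-positive to lean CD11c-negative pairs at 0.95 to 1.15. Library pairs share libraries, so no test was made.

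**Figure D1:**
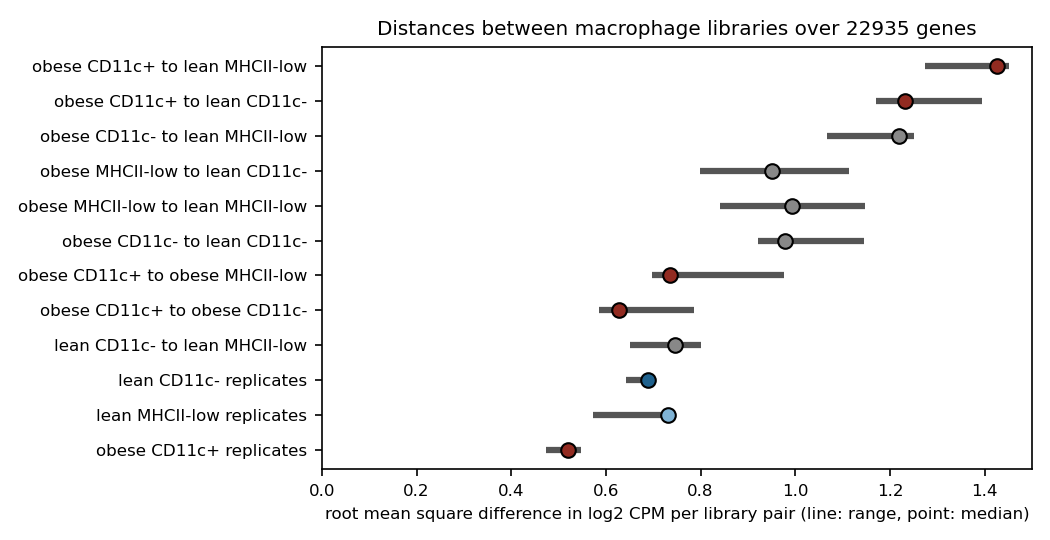
Root mean square difference in log2 CPM between pairs of macrophage libraries over 22935 genes; lines give the range over pairs, points the median, and rows the groups joined. Pairs of an obese CD11c-positive and a lean library lie at 1.17 to 1.45, and pairs of an obese CD11c-negative and a lean MHCII-low library, at 1.07 to 1.25, overlap the lower end of this range. Over genes of at least 10 CPM, not drawn, these spans did not overlap.

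Both lean groups gave like counts when taken alone. Against lean MHCII-low cells 12795 genes passed (55.8%, with 6014 higher and 6781 lower), and against lean CD11c-negative cells 11753 (51.2%, with 5565 higher and 6188 lower). Of the 13600 genes called against the mean, 10343 were called in the same direction against both lean groups, and 15 genes were called in opposite directions against the 2 groups.

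The libraries also differed in breadth. At an equal depth of 11245851 counts, 22897 to 23205 genes were detected in CD11c-positive libraries, against 23510 to 24214 in the other obese and 25367 to 31157 in the lean libraries. The 1967 receptor genes of smell and pheromone sensing (olfactory and vomeronasal) were summed as a rough measure of background. Some of them may be expressed in macrophages, which was not tested. The sum was 24.9 to 27.3 CPM of the library total in CD11c-positive, 28.9 to 56.1 in the other obese and 73.0 to 249 in lean libraries. Total counts ran from 30073052 to 31965501 in CD11c-positive and from 20783760 to 25914583 in lean libraries. These measures move with the comparison, their part in the falls of genes with low counts was not tested, and the genes of at least 10 CPM are therefore given beside the whole.

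**Figure D2:**
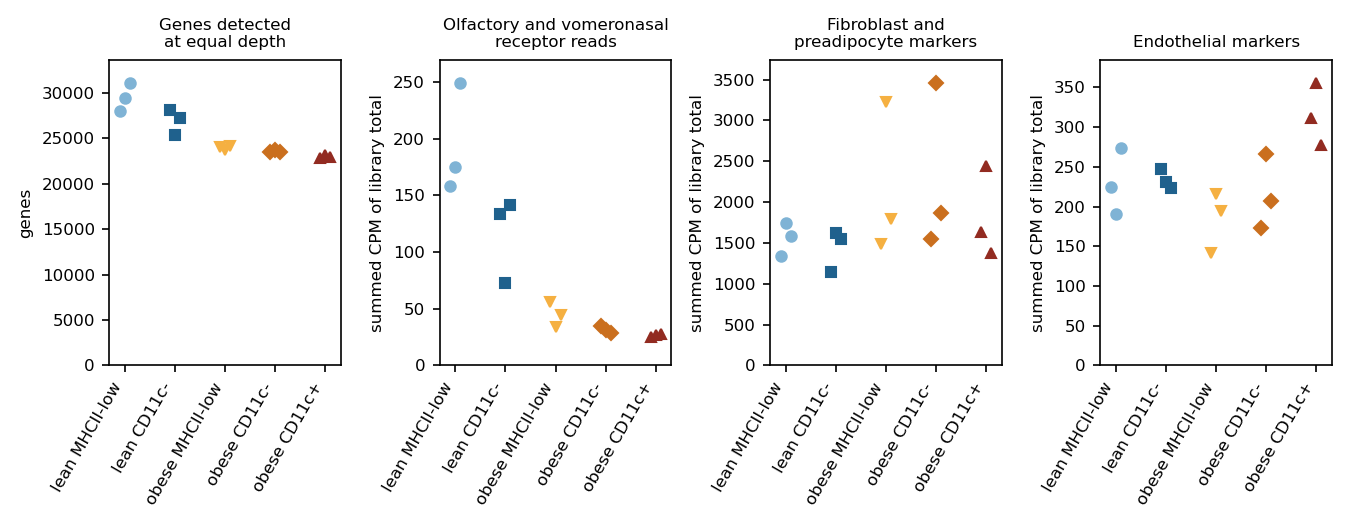
One point per library in each of the 5 macrophage groups: genes detected at 11245851 counts, summed CPM of olfactory and vomeronasal receptor genes, and summed CPM of fibroblast and endothelial markers. The 3 CD11c-positive libraries are lowest in the first and second panels and highest in the fourth, while the groups overlap in the third.

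The genes used for sorting were read first, as a check of the labels. Itgax (chromosome 7, 128129547 to 128150657, plus strand, GRCm38) stood at 480.1, 648 and 631 CPM in the CD11c-positive libraries, 21.5 to 98.3 in the other obese, 19.3, 16.4 and 14.5 in lean CD11c-negative and 5.44, 3.74 and 4.57 in lean MHCII-low libraries. H2-Ab1, which encodes an MHC class II chain, had 2208, 1226 and 1680.4 CPM in CD11c-positive, 2078, 2458 and 1758 in lean CD11c-negative and 257, 209.6 and 232 in lean MHCII-low libraries. Both follow the gates and are no finding. Macrophage genes were present in every group: Adgre1 (F4/80) at 1039 ± 62.4 CPM, Cd68 at 859 ± 132 and Csf1r, the receptor for the macrophage growth factor, at 1620.5 ± 58.9 CPM in CD11c-positive cells (SD, n = 3). Adgre1 rose 2.37-fold and Cd68 2.59-fold over the lean mean. Csf1r had a log2 difference of -0.45 (SE 0.22, adjusted p = 0.0815), which did not pass. It was lower and passed in 5 other fits, with the description number as a block (-0.54, adjusted p = 0.0401), the compared groups alone, the 15 macrophage libraries, no filter and DESeq2 (-0.42 to -0.51 in these 4). Fcgr1 (CD64) and Itgam (CD11b) rose by 0.83 and 0.49 log2. Lyz2 rose by 0.81 log2 and Ptprc (CD45) by 0.34, but Lyz2 lost its call without CD11c-positive replicate 2 (0.88) or 3 (0.81), and Ptprc without replicate 1 (0.35) or 3 (0.38).

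The 8 largest rises were Myh15, Fat3, Gpnmb, Mmp12, Vsig8, Npas4, Serpinb9b and Rnf128, and the 8 largest falls were Cd209d, Cd209g, Lyve1, Siglech, Ifi202b, Cd209b, Cd209f and Mmp9, among protein-coding genes of at least 10 CPM whose groups did not overlap. Gpnmb, a transmembrane glycoprotein of lipid-laden macrophages (chromosome 6, 49036546 to 49070929, plus strand), stood at 2028, 2744 and 2643 CPM in CD11c-positive cells. In the lean libraries it was 19.5, 19.3 and 8.41 CPM in MHCII-low and 15.8, 9.66 and 17.8 in CD11c-negative cells. Each CD11c-positive library was over every lean library, and the fit gave 164-fold, a log2 difference of 7.36 (SE 0.40, adjusted p = 2.83e-10). Mmp12, the macrophage elastase (chromosome 9, 7344381 to 7369499, plus strand), stood at 651, 1196 and 1034 CPM against 4.52, 4.61 and 6.13 in lean MHCII-low and 10.1, 9.70 and 7.32 in lean CD11c-negative cells, a 141-fold rise. Another gene overlaps Mmp12 on the other strand, as for 37 of the 155 genes chosen for naming by rule (Acp5, Cd9, Il1b, Adam8 and Itgad among them). No source used here states the strand setting, and reads of such pairs may be mixed.

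Myh15, a myosin heavy chain (chromosome 16, 49057486 to 49199104, plus strand), had the largest fitted difference. Its level was 97.4, 177 and 194 CPM in CD11c-positive cells, 0.731, 0.437 and 0.432 in lean MHCII-low and 0.237, 0.270 and 0.183 in lean CD11c-negative cells, a log2 difference of 8.77 (SE 0.67, adjusted p = 1.83e-08). The lean levels rest on few reads, so the size of this fold is less certain than its direction. Fat3, an atypical cadherin, went from 0.457–1.36 CPM over the lean libraries to 112, 251 and 226 CPM (7.54 log2), and its CD11c-positive libraries overlapped with those of the other obese groups, 17.3 to 118 CPM. A span of this kind gives the lowest and highest of the 6 lean libraries, here and in later comparisons, and the values after it are the CD11c-positive libraries. Vsig8, an immunoglobulin superfamily protein, stood at 84.6, 92.5 and 94.3 CPM against 0.647 to 1.46 in lean and 3.59 to 11.7 in other obese libraries, so it set the CD11c-positive cells apart from both. Rnf128, a ubiquitin ligase, stood at 152, 272 and 265 CPM against 2.15 to 4.66 in lean cells (6.24 log2). Npas4, a transcription factor, and Serpinb9b, a serpin, were weakly expressed, at 9.02, 12.6 and 12.7 and 4.46, 23.9 and 18.4 CPM, with lean libraries at 0 to 0.320 and 0.0971 to 0.396 CPM.

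Among the falls, Mmp9, a gelatinase (chromosome 2, 164940780 to 164955850, plus strand), stood at 5.16, 3.89 and 2.69 CPM in CD11c-positive cells, 234, 263 and 185 in lean MHCII-low and 268, 256 and 350.2 in lean CD11c-negative cells, a log2 difference of -6.04 (SE 0.49, adjusted p = 3.29e-08). The other obese libraries were at 4.88 to 11.2 CPM and overlapped with the CD11c-positive ones, with a diet part of -5.07 (adjusted p = 1.06e-08) and a population part of -0.97 (adjusted p = 0.127). Siglech, a lectin of plasmacytoid dendritic cells and some macrophages, fell from 24.9–37.2 CPM in lean libraries to 0.200–0.536 CPM. Ifi202b, an interferon-inducible gene, fell from 16.5–42.5 to 0.268–0.566 CPM. The Cd209 genes and Lyve1 are described with the resident macrophage genes.

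**Figure D3:**
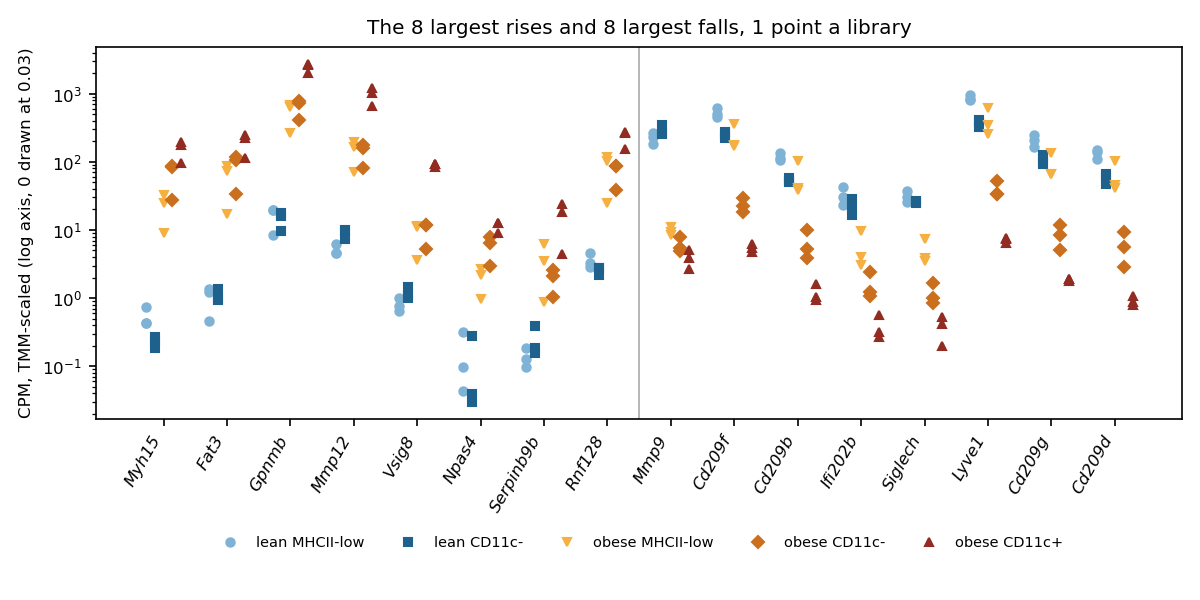
CPM (log axis) of the 8 largest rises and the 8 largest falls, 1 point per library in the 5 macrophage groups; a library without reads is drawn at 0.03. CD11c-positive libraries lie above all lean libraries in the left 8 genes and below all of them in the right 8, with the other obese groups mostly between.

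Genes of lipid-associated macrophages rose nearly throughout. Of 20 listed, 19 were higher, none was lower and Apoe did not pass, with a median log2 difference of 3.09 against -0.18 over all tested genes. The 19 called genes also showed no overlap between CD11c-positive and lean libraries, which 26.8% of all genes did in the higher direction. Trem2, a lipid-sensing receptor on the surface of these cells (chromosome 17, 48346401 to 48354147, plus strand), stood at 279, 377 and 382 CPM in CD11c-positive, 42.6, 30.5 and 36.4 in lean MHCII-low and 26.5, 28.7 and 18.3 in lean CD11c-negative cells, a log2 difference of 3.53 (SE 0.20, adjusted p = 7.61e-11). The other obese libraries lay between, at 115 to 202 CPM. Lpl, the lipase that frees fatty acids from lipoproteins, stood at 4594, 5583 and 5619.9 CPM against 165 to 428 in lean cells (18.2-fold). Atp6v0d2, a subunit of the proton pump found in osteoclasts and some macrophages, stood at 470.1, 603 and 586 CPM against 7.09 to 13 in lean cells (53.5-fold), and Acp5, the tartrate-resistant acid phosphatase, at 96.3, 91.9 and 90.3 against 7.21 to 15.1 (9.94-fold).

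The tetraspanin Cd9 rose by 4.88 log2, the secreted phosphoprotein Spp1 by 3.74, the fatty acid transporter Cd36 by 1.20 and the lipid droplet coat protein Plin2 by 1.20. Cd36 and Plin2 had the smallest rises of the list, and lean cells already held them at 1590.3 to 2027 and 572 to 790.2 CPM. Apoe, the apolipoprotein that takes up effluxed cholesterol, stood at 3438, 3953 and 4651 CPM in CD11c-positive, 5035, 4124 and 4189 in lean MHCII-low and 3306, 4111 and 2856 in lean CD11c-negative cells, and its groups overlapped. Its log2 difference was 0.04 (adjusted p = 0.913). The remaining 9 members rose by 1.32 to 4.20 log2, among them the fusion receptor Dcstamp (3.71), the fatty acid binding protein Fabp5 (4.20) and the lectin Lgals3 (2.87). Against lean MHCII-low cells 19 of 20 were higher, where 26.2% of all genes were, and against lean CD11c-negative cells 19 of 20, where 24.3% were. In the parts, the diet part had 19 of 20 higher (median 1.84), where 24.8% of all genes were higher, and the population part 15 of 20 (median 1.11), where 5.76% were. The diet part was the larger in 18 of 20 genes, against 67.6% of all tested genes and 73.5% of those called in the total difference.

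Genes of resident tissue macrophages fell. Of 23 listed, none was higher and 20 were lower (median -2.69), beside 31.4% of all genes lower. Lyve1, a hyaluronan receptor of macrophages along vessels (chromosome 7, 110850607 to 110863239, minus strand), stood at 6.45, 7.74 and 7.40 CPM in CD11c-positive cells. It was 954, 796 and 845 CPM in lean MHCII-low and 408, 382 and 325 in lean CD11c-negative cells, a log2 difference of -6.30 (SE 0.57, adjusted p = 1.07e-07). Among the obese groups it was 253 to 628 CPM in MHCII-low and 33.6 to 51.6 in CD11c-negative cells, with a population part of -4.15 and a diet part of -2.15 log2. Cd163, the haptoglobin-hemoglobin receptor (chromosome 6, 124304656 to 124330527, plus strand), stood at 62.5, 73 and 66.3 CPM, against 1616, 1699.9 and 1538 in lean MHCII-low and 1191, 1264 and 1240.3 in lean CD11c-negative cells, a log2 difference of -4.39 (SE 0.22, adjusted p = 3.84e-12). Timd4, a phosphatidylserine receptor of long-lived macrophages, stood at 0.931, 1.37 and 1.15 CPM against 108, 86.8 and 74.7 in lean MHCII-low and 32, 30.1 and 27.1 in lean CD11c-negative cells, a 44.6-fold fall. All lean libraries lay above all CD11c-positive ones in each of these genes.

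The Cd209 genes, lectins of the DC-SIGN family clustered on chromosome 8, fell together. Cd209d went from 46.5–151 CPM in lean to 0.803–1.06 CPM in CD11c-positive libraries, Cd209g from 94.2–251 to 1.76–1.89, Cd209f from 221–616 to 4.79–6.28 and Cd209b from 51.4–134 to 0.938–1.60. They are related genes that may share reads, which was not tested, so they do not count as separate evidence. Pla2g2d, a secreted phospholipase, fell 50.7-fold and Mrc1, the mannose receptor, 3.05-fold, from 3285–3898 to 1144–1166 CPM.

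Other steep falls of the list were those of Cbr2, a carbonyl reductase (-5.00 log2), the lectin Fcna (-4.81) and F13a1, a chain of coagulation factor XIII (-4.53), while the transcription factor Maf fell by 2.30 and the scavenger receptor Stab1 by 0.74. Against lean MHCII-low cells 21 of 23 were lower, where 29.6% of all genes were, and against lean CD11c-negative cells 18, where 27.0% were.

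Igf1, an insulin-like growth factor, Pf4 and Selenop were the 3 resident genes without a call. Igf1 stood at 349, 478 and 478 CPM against 319.6 to 434 in lean cells and did not pass (0.24 log2, adjusted p = 0.214). Pf4, a platelet chemokine, and Selenop, a selenium carrier, were close to the threshold, at -1.12 (adjusted p = 0.0703) and -0.57 log2 (adjusted p = 0.0578). Pf4 was lower and passed with the description number as a block (-1.28, adjusted p = 0.0427), the compared groups alone, the 15 macrophage libraries and no filter. Selenop passed in these 4 fits and with the title block (-0.59), the obese block (-0.58), DESeq2 and its size factors (-0.61 in both), so neither can be counted as a gene that did not fall. Folr2, the folate receptor, was called at -0.998 log2 (adjusted p = 0.0342), but its libraries overlapped, and leaving out any 1 of the CD11c-positive or lean libraries other than lean CD11c-negative replicate 3 ended the call (-0.66 to -1.20 log2). The population part held 19 of 23 lower (median -1.77), beside 6.82% of all genes, and the diet part 15 of 23 lower (median -0.82), beside 27.1%, with 1 higher. The population part was the larger in 19 of 23 genes. All tested genes had it larger in 7426 of 22935, and those called in the total difference in 3605 of 13600.

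**Figure D4:**
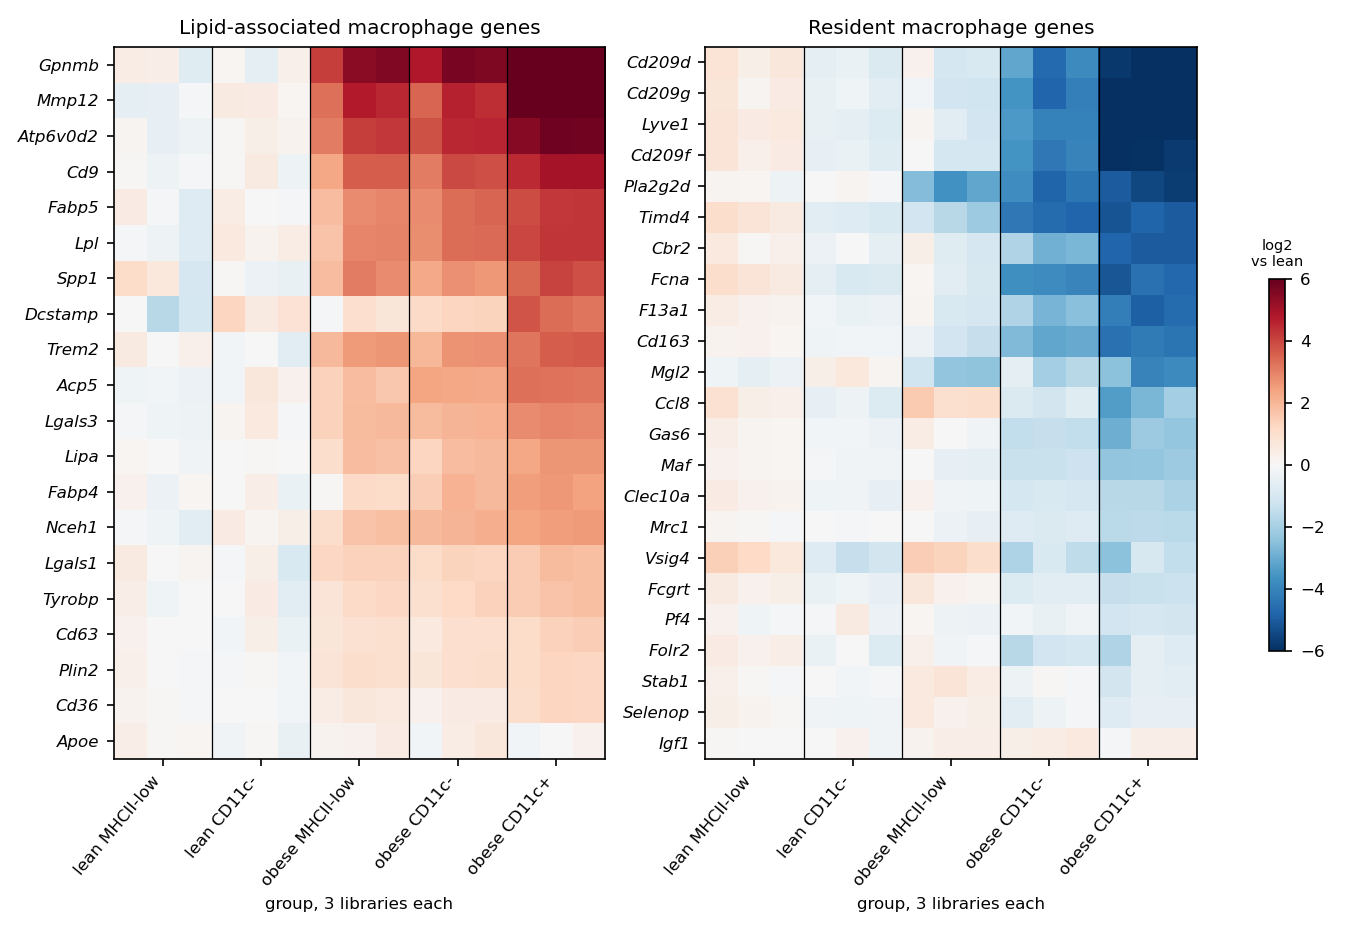
Log2 CPM of lipid-associated (left) and resident (right) macrophage genes relative to the mean of the 6 lean libraries, 1 column per library in 5 groups of 3; colours end at -6 and 6, so larger differences share the end colour. The left panel steps up from lean through the other obese to CD11c-positive libraries for most genes but not for Apoe, and the right panel is lowest in CD11c-positive libraries for most genes but not for Igf1.

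Lysosomal enzymes rose in part. Of 24 listed genes 17 were higher and 1, Neu1, was lower (median 0.72). Their summed level was 20428 to 22507 CPM of the library total in CD11c-positive, 13159 to 17950.2 in other obese and 8318 to 11322 in lean libraries. Psap, the precursor of the saposins that present lipids to lysosomal enzymes, stood at 7619.9, 8098 and 8352 CPM against 1613 to 2064 in lean cells, a log2 difference of 2.11 (SE 0.13, adjusted p = 9.73e-11). Ctsk, a collagen-degrading cathepsin, went from 4.52–7.86 to 158, 240.2 and 252 CPM (5.21 log2). Lipa, the acid lipase, counted here with the lipid-associated genes, had 1263 to 1609.7 CPM against 222 to 271 in lean cells. Of the 16 subunits of the vacuolar proton pump 9 were higher and 3 lower (median 0.39). They did not move as one: Atp6v0a1 and Atp6v0a2, membrane subunits, rose by 1.51 and 1.49 log2, while Atp6v1h, a cytosolic regulatory subunit, fell by 1.65. The other falls, Atp6v0c (-0.42) and Atp6v1d (-0.31 log2), were small, and 1 subunit was lower when any 1 CD11c-positive library, or lean CD11c-negative replicate 2, was left out.

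The lysosomal promoters are shown because the genes rose together and because the element CACGTG is a known target of the lysosomal regulators Tfeb and Tfe3. The letters CACGTG, on either strand since the word is its own reverse complement, occurred in the 250 bases before the start of 7 of 19 windows of the listed lysosome genes (36.8%), against 1978 of 32851 windows of all genes (6.02%). They occurred in 2 of 13 windows of the proton pump (15.4%) and 4 of 17 of cholesterol synthesis (23.5%). In other lists with more members higher, they occurred in 1 of 19 windows of lipid-associated genes (5.26%) and 0 of 16 of fatty acid oxidation. They occurred in 1 of 20 of oxidative phosphorylation (5%), 1 of 21 of cell cycle (4.76%) and 1 of 12 of sterol export (8.33%). Among lists with more members lower than higher, they occurred in 4 of 21 windows of dendritic cell genes (19%) and 3 of 27 of macrophage transcription factors (11.1%). Resident macrophage genes had them in 0 of 24 windows and interferon response genes in 0 of 17. Here and below a match describes letters in a window and is no evidence of binding, and none of the 3 strings searched contains another. Windows come from RefSeq on GRCm38.p6, 5′ to 3′ on the gene's strand, and capitals mark the letters searched. The examples were chosen after their values were seen. Glb1, a galactosidase, rose from 24.2–33.4 to 65.5–74.3 CPM, and Ctsd, a cathepsin, from 306–506 to 1259.6–1592 CPM. In the annotation both overlap another coding gene on their own strand, so part of their reads may be shared. The window of Glb1 is chr9:114400828-114401077 (plus strand) and that of Ctsd chr7:142387828-142388077 (minus strand).
Glb1: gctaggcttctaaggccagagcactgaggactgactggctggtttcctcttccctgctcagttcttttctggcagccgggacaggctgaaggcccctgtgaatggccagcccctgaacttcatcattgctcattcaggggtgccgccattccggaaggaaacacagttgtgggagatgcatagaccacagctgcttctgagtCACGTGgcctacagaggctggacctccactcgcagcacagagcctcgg
Ctsd: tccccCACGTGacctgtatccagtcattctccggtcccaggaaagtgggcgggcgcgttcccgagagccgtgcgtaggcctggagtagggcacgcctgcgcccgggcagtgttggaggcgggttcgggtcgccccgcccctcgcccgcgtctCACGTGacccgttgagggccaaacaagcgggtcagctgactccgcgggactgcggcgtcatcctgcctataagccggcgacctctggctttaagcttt

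Genes of sterol export and the liver X receptor rose with exceptions. Of 10 tested (12 listed), 7 were higher and 2 lower (median 1.18). Abcg1, the transporter that passes cholesterol to lipoproteins, stood at 394, 431 and 462 CPM in CD11c-positive against 36.9, 39.8 and 30.4 in lean MHCII-low and 45.5, 42.4 and 31.6 in lean CD11c-negative cells, a log2 difference of 3.51 (SE 0.19, adjusted p = 2.92e-11). Abca1, the other main cholesterol exporter, stood at 1697, 1678 and 1993 CPM against 1710.0 to 2201 in lean cells, its groups overlapped and it did not pass (-0.16 log2, adjusted p = 0.477). Nr1h3, which encodes liver X receptor alpha, rose from 4.70–7.75 to 51.2, 53.2 and 54.9 CPM (3.20 log2), and Soat1, which esterifies cholesterol for storage, from 109.9–171 to 389, 387 and 388 CPM.

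Cholesterol synthesis rose at the same time, with 14 of 20 genes higher and 3 lower (median 0.94). Hmgcs1, an early enzyme of the pathway, went from 14.9–23.1 to 57.8, 57 and 46.2 CPM (1.59 log2), and Msmo1 and Cyp51, late sterol enzymes, rose by 1.46 and 1.35 log2. The 3 falls, Mvd, Fdft1 and Sqle, were small, -0.43, -0.39 and -0.34 log2, and numbered 0 without CD11c-positive replicate 2 or 3 and 1 without lean MHCII-low replicate 3 or lean CD11c-negative replicate 2. Among lipid droplet and lipase genes 9 of 19 were higher and 5 lower (median 0.55), beside 49.5% higher and 25.3% lower of all genes of at least 10 CPM. Hilpda, an inhibitor of triglyceride lipolysis, rose by 1.91 log2, Scarb1, a lipoprotein receptor, by 1.80 and Pparg, a fatty acid sensing nuclear receptor, by 1.80, from 6.82–25.7 to 43.5, 46.3 and 47.4 CPM. Fatty acid oxidation had 17 of 19 genes higher (median 0.89) and 2 lower, among them Acadvl, a long-chain acyl-CoA dehydrogenase, at -0.66 log2. Hadha and Hadhb, the subunits of the mitochondrial trifunctional protein, rose from 65.9–77 to 215, 231 and 227 CPM and from 25.5–31.3 to 82.5, 79.3 and 77.7 CPM.

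Nuclear genes of oxidative phosphorylation were higher in 26 of 26 cases, each without overlap of CD11c-positive and lean libraries (median 1.03, smallest rise 0.62 log2). Of all tested genes 27.9% were called higher, and 26.8% lay higher without overlap. Sdhb, an iron-sulfur subunit of complex II, stood at 68.3, 69.8 and 72.9 CPM against 32.6, 23.9 and 25.6 in lean MHCII-low and 27.7, 28.5 and 22.9 in lean CD11c-negative cells, a log2 difference of 1.39 (SE 0.13, adjusted p = 1.64e-08). Ndufs1 of complex I rose by 0.92 and Atp5a1 of the ATP synthase by 1.02 log2. In all 26 genes the means of both other obese groups lay between the lean groups and the CD11c-positive group. This held for 49.1% of all tested genes and for 73.6% of the genes called in the total difference. Glycolysis and hypoxia genes were mixed, with 11 of 21 higher and 6 lower (3 lower without CD11c-positive replicate 2 or 3). Pkm and Tpi1, glycolytic enzymes, rose by 1.37 and 1.59 log2 and the angiogenic factor Vegfa by 2.19, from 27.1–84 to 202, 198 and 277 CPM. Pfkfb3, which makes the activator of phosphofructokinase, fell from 409–659 to 88.6, 93.8 and 105 CPM (-2.41 log2).

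Cell cycle genes rose in 24 of 25 cases (median 1.93), beside 27.9% of all tested genes. The exception, Pcna, had 0.30 log2 (adjusted p = 0.108). The summed level of the list was 1162 to 1367 CPM of the library total in CD11c-positive libraries. It was 841 to 1002 in other obese and 376 to 564 in lean libraries, with no overlap. Mki67, a protein of dividing cells (chromosome 7, 135689784 to 135716361, minus strand), stood at 376, 464 and 399 CPM against 71.9, 89.2 and 97.3 in lean MHCII-low and 126, 159.7 and 126 in lean CD11c-negative cells, a log2 difference of 1.93 (SE 0.12, adjusted p = 8.11e-11). Cyclin A2 (Ccna2) went from 2.69–5.10 to 20.8, 29.6 and 23.9 CPM, the spindle protein Tpx2 from 3.54–5.29 to 27, 32.4 and 29.7 CPM and the replicative helicase subunit Mcm6 from 16.9–27.3 to 93, 107 and 99.9 CPM. The diet part held 24 of 25 higher (median 1.33), beside 24.8% of all genes. The population part held 20 of 25 higher (median 0.65), beside 5.76%.

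The promoters of 2 of these genes are shown for the letters CCAAT, the core bound by factor NF-Y, which many cell cycle promoters carry. CCAAT, read on either strand (ATTGG on the other), occurred in 18 of 21 windows of the listed cell cycle genes (85.7%), against 11120 of 32851 windows of all genes (33.8%). It occurred in 14 of 17 windows of the cholesterol synthesis genes (82.4%), 7 of 9 of the MHC class II genes (77.8%), 8 of 17 of the interferon response genes (47.1%) and 9 of 24 of the resident macrophage genes (37.5%). Top2a, a DNA topoisomerase, rose from 16.6–34.3 to 112–133 CPM and holds 6 matches in chr11:99024190-99024439 (minus strand). Rrm1, a subunit of ribonucleotide reductase, rose from 19.9–27 to 65.4–73.9 CPM and holds 2 matches in chr7:102441445-102441694 (plus strand).
Top2a: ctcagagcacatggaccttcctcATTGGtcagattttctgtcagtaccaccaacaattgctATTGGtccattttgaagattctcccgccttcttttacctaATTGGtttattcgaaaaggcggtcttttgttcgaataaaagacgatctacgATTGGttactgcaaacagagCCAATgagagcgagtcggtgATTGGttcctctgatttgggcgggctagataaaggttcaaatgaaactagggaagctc
Rrm1: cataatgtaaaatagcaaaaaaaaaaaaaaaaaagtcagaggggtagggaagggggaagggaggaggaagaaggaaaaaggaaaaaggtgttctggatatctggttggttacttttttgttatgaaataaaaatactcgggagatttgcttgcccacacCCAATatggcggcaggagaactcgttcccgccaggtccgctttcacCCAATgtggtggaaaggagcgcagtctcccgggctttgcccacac

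Interferon response genes fell. Of 23 listed, 18 were lower and 1 was higher (0 without CD11c-positive replicate 3, median -1.13). The summed level was 302 to 315 CPM of the library total in CD11c-positive, 368 to 737 in other obese and 574 to 1509 in lean libraries. Oas2, a sensor of double-stranded RNA, stood at 11.8, 13 and 11 CPM against 95.4, 78.2 and 68.8 in lean MHCII-low and 67.7, 60.5 and 63.9 in lean CD11c-negative cells, a log2 difference of -2.59 (SE 0.17, adjusted p = 2.11e-10). Ifi204, a DNA sensor, fell from 162–260.4 to 51.5, 61.8 and 59.1 CPM and Stat2, a transcription factor of the interferon pathway, from 48.4–72.4 to 26.8, 24.5 and 28.7 CPM. Lean libraries spread widely in some of these genes, so their level in lean cells is less certain: Rsad2, an antiviral enzyme, was 61.8, 203 and 68.1 CPM in lean MHCII-low, 26.4, 37.4 and 132 in lean CD11c-negative and 14.7, 16.2 and 17.7 in CD11c-positive libraries.

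The element bound by interferon-activated factors has a core of GAAA, any 2 bases and GAAA again. This core occurred on either strand in 8 of 17 windows of the listed interferon genes (47.1%), against 978 of 32851 of all windows (2.98%) and 2 of 24 of the resident macrophage genes (8.33%). The window of Rsad2 is chr12:26456453-26456702 (minus strand) and that of Ifit3, which fell from 5.87–12 to 3.43–4.49 CPM, is chr19:34583279-34583528 (plus strand), and both hold it on the other strand.
Rsad2: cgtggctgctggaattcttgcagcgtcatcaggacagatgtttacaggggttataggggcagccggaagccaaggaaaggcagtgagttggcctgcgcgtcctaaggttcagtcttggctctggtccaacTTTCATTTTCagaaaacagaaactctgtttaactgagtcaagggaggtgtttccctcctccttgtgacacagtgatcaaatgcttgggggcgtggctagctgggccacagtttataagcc
Ifit3: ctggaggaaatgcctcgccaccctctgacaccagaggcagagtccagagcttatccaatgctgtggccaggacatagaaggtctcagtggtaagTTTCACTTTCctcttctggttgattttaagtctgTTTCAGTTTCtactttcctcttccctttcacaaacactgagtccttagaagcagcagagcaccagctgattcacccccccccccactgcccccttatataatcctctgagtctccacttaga

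Immediate early genes, which also answer to tissue digestion, were lower in 15 of 18 cases and higher in 1 (median -0.86). Fosb stood at 1268, 1190.3 and 1389.8 CPM against 2309.7 to 3099 in lean cells, and Jund and Ier3 fell by 1.28 and 2.50 log2. Fos alone rose, by 0.47 log2 (adjusted p = 0.0138), and lost its call without CD11c-positive replicate 1 (0.33). Since handling of the tissue also moves these genes, their part in the other results was not tested.

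Inflammatory genes split. Of 24 listed 6 were higher and 10 lower (median -0.43), beside 27.9% higher and 31.4% lower of all tested genes. Il1b, the cytokine interleukin 1 beta, stood at 147, 216 and 226 CPM against 52.3, 48.1 and 14.9 in lean MHCII-low and 127, 61.1 and 136 in lean CD11c-negative cells, a log2 difference of 1.61 (SE 0.39, adjusted p = 0.00202), and it did not pass against the lean CD11c-negative group alone (adjusted p = 0.133). Tnf, the tumor necrosis factor, was lower, at 128, 76.7 and 70.5 CPM against 141, 246 and 168 in lean MHCII-low and 158, 239 and 305 in lean CD11c-negative cells, a log2 difference of -1.18 (SE 0.37, adjusted p = 0.0120). Its call was lost without CD11c-positive replicate 2 (-1.03 log2) or 3 (-0.99 log2). Il6 fell from 17.8–44.9 to 8.98, 13.1 and 9.04 CPM (-1.58 log2). Ccrl2, a chemerin-binding receptor, rose by 2.03 log2 and Tnfrsf1b, a receptor for tumor necrosis factor, by 0.92, while Clec4n (Dectin-2) fell by 1.78.

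Chemokines were lower in 8 and higher in 4 of 18 cases (median -0.63). Ccl2, which draws monocytes (chromosome 11, 82035571 to 82037453, plus strand), stood at 41.4, 28.7 and 27.3 CPM against 747, 599 and 403 in lean MHCII-low and 508, 525 and 559 in lean CD11c-negative cells, a log2 difference of -4.10 (SE 0.46, adjusted p = 1.20e-06). Its neighbours Ccl7 and Ccl12 fell from 271–443 to 14.8, 9.72 and 9.92 CPM and from 10.7–31 to 1.16, 0.436 and 0.803 CPM. Cxcl14 rose from 1.14–2.55 to 11.4, 16.8 and 16.6 CPM (3.04 log2). Of 18 receptors for chemoattractants 5 were higher and 5 lower, beside 27.9% higher and 31.4% lower of all tested genes. In the fit of the compared groups alone and in that of the 15 macrophage libraries 10 were lower. Ccr1 fell from 281–539.6 to 32.5, 27.4 and 26.5 CPM, and P2ry12 and Cxcr3 fell by 3.27 and 2.84 log2.

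The MHC class II genes show where the mean of the lean groups hides a difference. Of 11 genes 8 were higher and 1 lower against the mean (median 0.90). Against lean MHCII-low cells 9 were higher and 1 lower (median 2.04). Against lean CD11c-negative cells 1 was higher and 4 were lower (median -0.30). H2-Eb1 stood at 1852, 1077 and 1262 CPM in CD11c-positive, 163, 136 and 144 in lean MHCII-low and 1584, 1982 and 1330.4 in lean CD11c-negative cells, above the first lean group and overlapping the second. The sort chose cells by this protein, so these levels are a description. Ctss, the cathepsin that trims the invariant chain, differed from them by being higher than in both lean groups, 1711, 1827 and 2018 CPM against 525, 422 and 405 in lean MHCII-low and 408, 430.1 and 356 in lean CD11c-negative cells (2.13 log2). Cd74, the invariant chain, was called in opposite directions, 1.73 log2 against lean MHCII-low and -0.62 against lean CD11c-negative cells, and its call against the mean (0.55) was lost without CD11c-positive replicate 1 (0.43).

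The adhesion molecule Vcam1 (1.43 and -1.12 log2), Slamf7, a receptor of the SLAM family (0.49 and -0.47), and Tmem51 (0.92 and -0.96) also lay between the lean groups. Of 15 costimulatory and checkpoint genes 3 were higher and 3 lower, and the lower count was 6 in the fits of the compared groups alone and of the 15 macrophage libraries and 5 with no filter. Cd86, a ligand for T cell costimulation, fell from 363–528 to 121, 64.5 and 78.9 CPM (-2.41 log2), while Tnfsf4 (OX40 ligand) rose from 0–0.396 to 2.96, 4.26 and 3.63 CPM and Havcr2 (TIM-3) by 1.27 log2.

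Integrins were higher in 8 of 15 cases and lower in 3, with Itgax kept out of the list (5 lower in the fit of the compared groups alone). Itgad, a close paralog next to Itgax, went from 0.348–0.595 to 6.82, 6.13 and 6.15 CPM (3.68 log2) and may share reads with it. The vitronectin receptor chains Itgav and Itgb5 rose from 106–168 to 428, 528 and 500.3 CPM and from 27.7–60.4 to 230.0, 262 and 252 CPM. Receptors and bridging molecules for dying cells were higher in 8 and lower in 5 of 17 cases, beside the same shares. Axl, a phosphatidylserine-dependent kinase receptor, rose from 86–241 to 704, 597 and 640.4 CPM (2.14 log2), Anxa1, an annexin that resolves inflammation, by 2.78 log2 and Lrp1, a lipoprotein and calreticulin receptor, by 1.87. Mertk, the related kinase, was lower (-0.84 log2, adjusted p = 0.0211), but leaving out any CD11c-positive library, lean MHCII-low replicate 1 or lean CD11c-negative replicate 2 ended that call (-0.66 to -0.88), and the lower count was 2 to 3 without each of these libraries.

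Matrix and growth factor genes were higher in 8 and lower in 7 of 24 cases, beside 27.9% higher and 31.4% lower of all tested genes. Adam8, a membrane metalloprotease, went from 30.4–123 to 921, 945 and 898 CPM (3.82 log2) and Gdf3, a TGF-beta family ligand, from 0.949–2.79 to 25.2, 26.1 and 27.4 CPM, while Hbegf, an EGF receptor ligand, fell from 135–182 to 13.1, 12.7 and 13.5 CPM. Iron and heme genes were higher in 5 and lower in 4 of 14 cases, beside the same shares of all tested genes. Tfrc, the transferrin receptor, fell from 165–217 to 47.3, 52.3 and 51.8 CPM, and Hebp1, a heme-binding protein, and Blvra, a biliverdin reductase, rose by 2.50 and 1.34 log2. Macrophage transcription factors were lower in 11 and higher in 4 of 19 cases (7 lower without CD11c-positive replicate 2). Klf4 fell from 783–1387 to 319.6, 344 and 421 CPM, and Runx1 and Ppard fell by 1.36 and 1.72 log2. Mitf, a regulator of lysosomal genes, rose by 1.05 log2, and its relative Tfec did not pass (-0.52 log2, adjusted p = 0.172), though it was lower and passed with the 15 macrophage libraries (-0.57), the compared groups alone (-0.52) and no filter (-0.48).

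Genes of monocyte origin gave no common direction, with 5 higher and 7 lower of 18 (median -0.38). Of all tested genes 27.9% were higher and 31.4% lower. Ccr2, the receptor for Ccl2, stood at 139.9, 69.8 and 85.2 CPM, against 90.1, 59.9 and 52.8 in lean MHCII-low and 305, 186 and 199 in lean CD11c-negative cells, and did not pass against the mean (-0.34 log2, adjusted p = 0.283). Cx3cr1, the fractalkine receptor, did not pass either (-0.41 log2, adjusted p = 0.0824), but was lower and passed with the compared groups alone (-0.41) and without lean MHCII-low replicate 3 (-0.48). The coagulation factor F10 rose by 2.29 log2 and the integrin chain Itga4 by 1.04, while Ifitm6 fell by 2.86. Dendritic cell genes were lower in 9 and higher in 2 of 20 cases. The rises were those of Ccl22 (2.52 log2), a chemokine of mature dendritic cells, and their homing receptor Ccr7 (1.16 log2, adjusted p = 0.0472), and leaving out any 1 of the 9 compared libraries left 1 gene higher, while 5 were higher with no filter or in the fit of the compared groups alone. Cd209a fell from 46–91.9 to 4.86, 1.91 and 2.37 CPM and Irf4, a transcription factor, from 192–292 to 54.8, 35 and 39.4 CPM. The summed level of this list was 353 to 379 CPM of the library total in CD11c-positive and 691 to 909 in lean libraries. Irf4 alone, which fell, stood at 192 to 292 CPM in lean libraries. CD11c is also a marker of dendritic cells, and the share of such cells in the sorted groups was not tested.

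The population part shows what set the CD11c-positive cells apart from the mean of the other obese groups, which includes MHCII-low cells. In it 2886 genes passed (12.6%), 1322 higher and 1564 lower, and 1857 of 8639 genes of at least 10 CPM (21.5%). This count rests on few libraries: it was 1594, 906 and 1135 without CD11c-positive replicate 1, 2 or 3, 1465 without obese MHCII-low replicate 1 and 1677 without obese CD11c-negative replicate 1. It was 5571 in a fit of the 3 obese groups alone. The diet part held 11900 genes (51.9%), 5690 higher and 6210 lower. Among called genes with no overlap of the obese libraries, the largest rises of the population part were Ksr2, Vsig8, F7, Itgax and Mmp12, and the largest falls Cd209d, Lyve1, Cd209b, Cd209g and Cd209f.

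F7, coagulation factor VII (chromosome 8, 13026034 to 13035809, plus strand), stood at 68.5, 57.6 and 65 CPM in CD11c-positive, 8.40, 7.19 and 7.96 in obese CD11c-negative, 3.54, 5.86 and 6.58 in obese MHCII-low, 2.33, 0.618 and 1.28 in lean CD11c-negative and 1.87, 0.777 and 1.34 in lean MHCII-low cells, with a population part of 3.30 (SE 0.29, adjusted p = 1.11e-06) and a diet part of 2.23. Its neighbour F10, coagulation factor X, had 28, 18.8 and 26.6 CPM against 3.16 to 9.31 in the other obese and 2.70 to 7.40 in the lean libraries, with a population part of 2.08 (adjusted p = 6.30e-05) and a diet part of 0.21 (adjusted p = 0.462). Both genes thus stood apart in the CD11c-positive cells, and F10 did not pass for diet. Ksr2, a scaffold of the Ras pathway, stood at 16.7, 15.3 and 19.7 CPM against 0.232 to 3.12 in all other macrophage libraries.

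The lists divided differently between the parts. Fatty acid oxidation genes had the larger diet part in 19 of 19 genes, oxidative phosphorylation in 24 of 26, cell cycle in 22 of 25 and lysosome in 21 of 24. The diet part was the larger in 67.6% of all tested genes and in 73.5% of those called in the total difference. Resident macrophage genes had the larger population part in 19 of 23, macrophage transcription factors in 13 of 19 and MHC class II in 7 of 11. These are counts of fitted sizes and no test. For MHC class II the count follows the gates, since the other obese groups include cells sorted as MHCII-low. The summed level of that list was 9428 to 13922 CPM of the library total in CD11c-positive libraries. It was 14410 to 17788 in obese CD11c-negative and 2600 to 4071 in obese MHCII-low libraries. Resident macrophage genes also differed between these obese groups, summing to 8413 to 9579 CPM in CD11c-negative and 15103 to 20453 in MHCII-low libraries. They summed to 5029 to 6081 CPM in CD11c-positive libraries. The population part of the resident list thus also holds a difference between MHCII-low and MHCII-positive cells. Endothelial markers moved with the population part too, with 8 of 14 higher and none lower in it (median 1.07), beside 5.76% higher of all genes. The part of these markers in the rises of the population part was not tested.

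**Figure D5:**
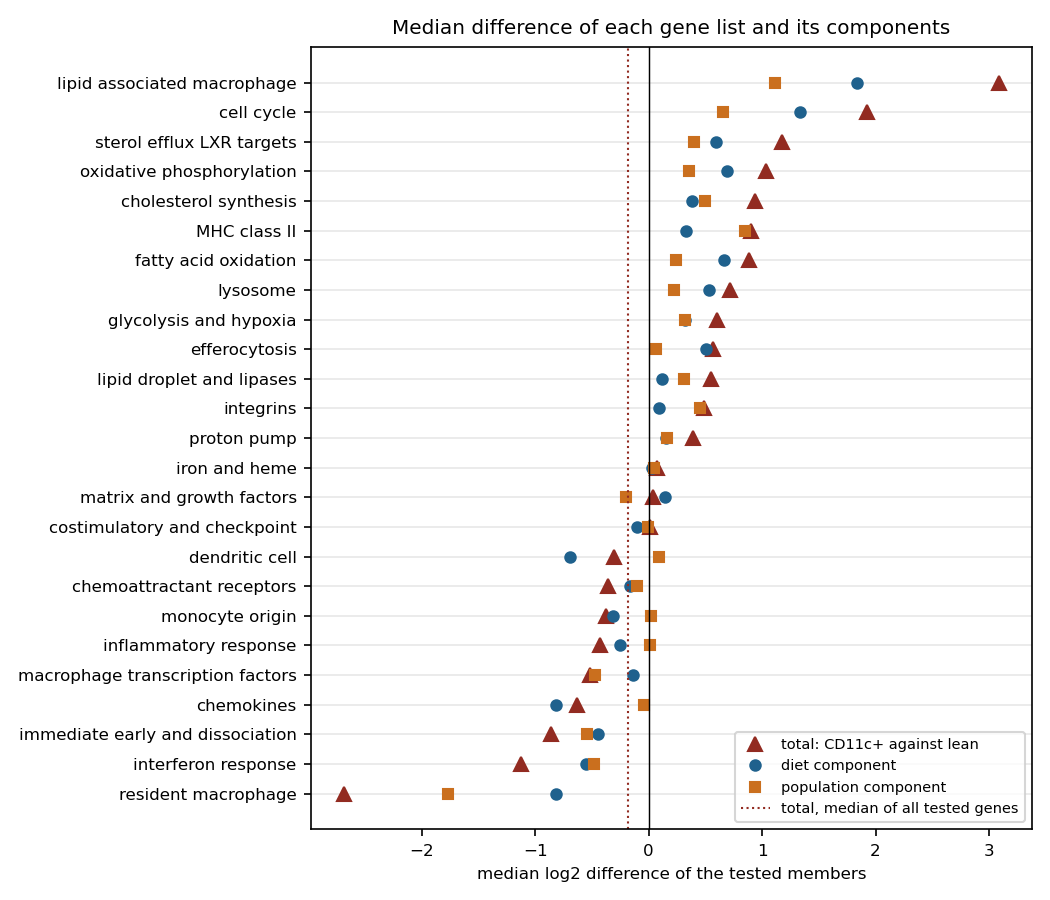
Median log2 difference of the tested members of 25 gene lists (x axis, log2) in the total difference (triangles), its diet part (circles) and its population part (squares); the dotted line is the median total difference of all tested genes, -0.18. The lipid-associated list lies highest at 3.09 and the resident list lowest at -2.69, the first with the larger diet part and the second with the larger population part.

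Markers of other cells were read beside these results. Of all tested genes 27.9% were higher and 31.4% lower in the total difference. Endothelial markers were higher in 6 of 14 cases and summed to 278 to 356 CPM of the library total in CD11c-positive, 141 to 266 in other obese and 190.5 to 274 in lean libraries, and Pecam1, Flt1 and Cldn5 rose by 0.90, 0.94 and 1.19 log2. This count was 3 without CD11c-positive replicate 1 or 2, lean MHCII-low replicate 2 or lean CD11c-negative replicate 3. Fibroblast markers overlapped between the groups, 1371 to 2442 against 1144 to 1739 CPM, with 3 of 15 higher and 2 lower, counts that fell to 1 or 0 without single libraries of all 3 groups. Mesothelial markers were lower in 9 of 10 cases (10.5 to 23.7 against 35.3 to 79.7 CPM, and 4 lower without CD11c-positive replicate 1 or 3), adipocyte markers lower in 6 and higher in 2 of 13 (1 higher without CD11c-positive replicate 1 or 2 or lean MHCII-low replicate 2, 95.1 to 113 against 112 to 139.6 CPM) and peritoneal macrophage genes lower in 9 of 9 (31.8 to 33.4 against 54.7 to 212 CPM). The lean groups differed here. Against lean MHCII-low cells alone 10 of 10 mesothelial and 9 of 9 peritoneal genes were lower (medians -1.90 and -1.99). Against lean CD11c-negative cells alone 5 of 10 and 5 of 9 were lower (medians -1.30 and -0.99).

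T and natural killer cell markers were lower in 9 of 15 cases and 1, Il7r, was higher. Il7r, the interleukin 7 receptor, stood at 231, 211 and 238 CPM in CD11c-positive against 24.6 to 121 in other obese and 7.42 to 14.6 in lean libraries, a log2 difference of 4.44 (SE 0.23, adjusted p = 3.02e-11). The rest of that list summed to 8.15 to 9.67 CPM in CD11c-positive and 27.1 to 41.3 in lean libraries, so Il7r moved against its list. Cd22, an inhibitory receptor of B cells, likewise rose (22.9, 26.7 and 28.5 against 1.25 to 3.40 CPM), while 6 of 11 B cell markers fell, 2 rose (1 without CD11c-positive replicate 1 or 3, lean MHCII-low replicate 2 or 3 or lean CD11c-negative replicate 3) and the rest of the list was at 77.6 to 99.1 against 187 to 237 CPM. Siglecf, an eosinophil and alveolar macrophage lectin, rose from 0–0.396 to 1.90, 1.64 and 2.03 CPM. Neutrophil markers were lower in 1 of 4 cases (0 without CD11c-positive replicate 1) and red cell markers in 3 of 5 (1 without CD11c-positive replicate 1 or 3), and in each CD11c-positive library the defining genes Ly6g, Elane and Epx had no read. The share of any of these cells in the other results was not tested.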

How the data were processed

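RNA-seq counts per gene of 21 libraries in 7 groups of 3 were deposited in 1 table. Per the submitters' processing notes the authors used bcl2fastq, Trim Galore 0.4.5, STAR 2.6.0a, featureCounts of Subread 1.4.6-p5 and GRCm38, and deposited raw gene counts. Strand setting, treatment of reads with several positions and annotation release are not given in the sources used here. Libraries were grouped by their labels.

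The counts were fitted with edgeR 4.0.16 (R 4.3.3): filterByExpr, TMM, and the quasi-likelihood test over all 7 groups, which share 1 estimate of the spread (14 residual degrees of freedom), with Benjamini-Hochberg adjustment over 22935 genes of 54532. Every adjusted p is from this test, and a gene was called, and is said to rise or fall, below 0.05. Log2 CPM for distances used a prior count of 2. CPM are means or single libraries scaled by TMM unless said to be of the library total. The reads carry no molecular identifiers, and the part of depth in the results was not tested.

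The 35 gene lists (590 genes), the members to name and the comparison were chosen with earlier results of these data known. The rule names the 8 largest rises and falls among called protein-coding genes of at least 10 CPM without overlap, the 3 smallest p and set leaders of each list, lineage genes, the 5 largest rises and falls of the population part, 4 genes called in opposite directions against the lean groups, and uncalled members of the lipid-associated and resident lists. Genes given as exceptions of a list, other members of those lists and the promoter examples were named after their values were seen. Promoter windows are the 250 bases before each start in RefSeq, GRCm38.p6. Gene coordinates are from GENCODE on GRCm38.

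Replicate numbers were checked over 8218 genes: obese libraries of equal number deviated together in 9 of 9 pairs (r 0.287 to 0.766, across genes of these libraries), and pairs across diets in 1 of 18. Lean libraries did so in 1 of 3 pairs by title number and in 2 of 2 (r 0.450 and 0.571) by description number, against 1 of 7 pairs of unequal description number. Alternatives were other size factors, DESeq2 1.42.0, no filter, fewer libraries, replicate blocks, leaving out each library, a test against a fold of 1.5 and a minimum of 10 CPM. Some genes of the lists are counted but not reported by name here.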

Additional observations from a re-analysis of the deposited data

How the results depend on the processing

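Against a fold of 1.5 (glmTreat), 7753 genes were called in the total difference (3105 higher, 4648 lower), 7541 against lean MHCII-low (2945 higher), 6282 against lean CD11c-negative cells (2518 higher, 3764 lower), 253 in the population part (68 higher, 185 lower) and 3875 in the diet part (1219 higher, 2656 lower). Among genes of at least 10 CPM, a limit chosen after seeing the data, the counts were 6758 (2287 lower) for the total, 1857 (828 lower) for the population part and 5680 (1782 lower) for the diet part, since fewer genes were counted, and the median distances fell to 1.131 from lean MHCII-low and 1.031 from lean CD11c-negative libraries. The population part rose to 5571 genes (3032 higher, 2539 lower) in a fit of the compared groups alone and to 5105 (2489 higher, 2616 lower) with the 15 macrophage libraries, and its higher count to 2273 with DESeq2 and 2111 with a block on the description number. The cause was not tested. Leaving out 1 library at a time gave 906 to 2582 genes for the population part (419 to 1250 higher, 487 to 1332 lower) and 11356 to 13479 for the total. With a replicate block on the title number, 13646 genes were called in the total difference, and with a block on the obese numbers alone, added after seeing the data, 13886 in the total and 3406 in the population part. DESeq2 called 14217 in the total (6345 higher, 7872 lower). Of 2788 values of the 155 named genes under the alternatives, 2714 kept direction and call, 52 lost the call, 22 gained it and 0 reversed. The list counts of lipid-associated, resident, cell cycle and oxidative phosphorylation genes stayed within 1.5 times of those reported under these settings, and 109 of 1260 list counts did not. With 3 libraries a group and labels that do not name separate mice, the p-values cannot speak for animals.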
